A study of Mus musculus with 12 samples.

Results

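Messenger RNA of 35 genes known to be made mainly by endothelial cells was followed in 12 RNA sequencing libraries of mouse heart. The genes were taken by name from a list, with the apelin receptor left out, and all 35 were found among the 55453 gene symbols of the count files. All 35 also passed the filter on low counts, which kept 14757 genes. The hearts came from C57BL/6J mice, in 4 groups with 3 libraries each: wild type (WT) given vehicle, WT given doxorubicin (DOX), PDE10A knockout (KO) given vehicle, and KO given DOX. DOX, an anthracycline used against cancer that harms the heart, was injected once into the abdomen at 15 mg/kg and followed for 7 days. PDE10A is a phosphodiesterase that breaks down cAMP and cGMP. The series asks how its loss alters the response of the heart to DOX. Libraries are named here by group and the number in their title: WT vehicle 1, 2 and 3, WT DOX 21, 22 and 24, KO vehicle veh_3393, veh_3394 and veh_3395, and KO DOX 18, 19 and 20. The protocols speak of male or female mice without saying which library is which, and neither age nor the way the knockout was made is stated in them. Nothing in the labels says outright that libraries of 1 group are separate animals, so the p-values measure the spread between these libraries.

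Endothelial cells line every blood vessel of the heart, and most of those in heart muscle sit in capillaries. They answer VEGF through the receptors KDR and FLT1 and angiopoietins through TEK and TIE1, and they are held to each other by VE-cadherin, claudin-5 and related surface proteins. Capillary cells pass fatty acids to the muscle with the help of GPIHBP1 and FABP4, arterial cells depend on Notch signalling, and von Willebrand factor and PLVAP are higher in venous and endocardial cells. SOX and ETS transcription factors set much of this identity. In whole-heart RNA, fewer cells of a type and less RNA per cell cannot be told apart.

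Library totals ran from 23846398 to 32921876 counts, and the lowest count of any of the 35 genes in any library was 17, for Bmx. Pde10a itself was higher in the libraries labelled KO (9.13 to 11.9 CPM, counts scaled to a common library size, under vehicle and 8.27 to 9.09 under DOX) than in WT (1 to 3.38 and 1.79 to 2.7). The counts therefore do not show a loss of Pde10a message under the KO label, and KO below means "labelled KO". WT vehicle 2 had 19.5% of its counts in mitochondrial genes against 24.4 to 33.6% in the others, and it was shifted towards short genes: genes of at most 1538.8 exon bases had a median of 0.41 log2 above their mean over the libraries and genes of at least 9709.4 bases one of -0.37. WT vehicle 3 was shifted the same way by less (0.17 and -0.16). Over all genes, the Spearman correlation of length with log2 fold change was 0.35 for DOX in WT and 0.36 for KO under vehicle. Among the 35 genes it was 0.2 in both. Summed over 7 atrial and endocardial markers, KO veh_3394 and KO DOX 18 stood at 2180 and 1650 CPM, against 91.1 to 283 in the other 10. These sums came mainly from Myl7 (542 and 543 CPM), Myl4 (612 and 465), Sln (110 and 80.1) and Nppa (877 and 498). Npr3 and Cytl1 were highest in KO DOX 18 (37 and 26.5 CPM). In KO veh_3394 they were 19.6 and 14.2 CPM, within the range of the other libraries. Bmp10 reached at most 0.366 CPM. Over all genes WT DOX 21 lay nearer to KO DOX 20 (root mean square difference 0.32 log2) than to either library of its own group (0.4 and 0.41), and KO veh_3394 and KO DOX 18 lay nearest to each other (0.31).

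Promoters, the 250 bases before the start of transcription, were listed for 19 of the 35 genes in the RefSeq table used (GRCm38.p6). Factors of the ETS family, ERG and FLI1 among them, bind sites built around a GGAA core. The letters AGGAAG, read on both strands, were found in 10 of the 19 promoters (52.6%) against 29.5% of all 32851 promoters. Here and below, the 19 genes were counted once each, at the first of their 24 listed start sites in all. The 32851 include every listed start site, so the 2 shares are not counted alike. The letters CCGGAA were found in 1 of 19 (5.26%), that of Kdr, against 12% of all. At least 1 of these 2 strings was found in 57.9% of the 19 and in 38.2% of all. The SOX strings ACAAAG and ACAATG were in 15.8% and 5.26% of the 19 and in 16.5% and 10.7% of all, and the GATA string AGATAA was in 0 of 19 and in 9.99% of all. These are matches of letters and not binding sites. The promoters printed here belong to the 2 VEGF receptor genes, which stood on opposite sides of 0 under DOX in WT, and to 3 genes that fell both under DOX in WT and in KO under vehicle. Each is printed 5′ to 3′ on the strand of its gene, with AGGAAG or CCGGAA, or their reverse complements CTTCCT and TTCCGG, in capitals. They lie at chr5:75978456-75978705 (Kdr, minus strand), chr5:147726012-147726261 (Flt1, minus strand), chr2:32646345-32646594 (Eng, plus strand), chr2:26580833-26581082 (Egfl7, plus strand, the first of 3 start sites listed) and chr16:18776597-18776846 (Cldn5, plus strand).
Kdr: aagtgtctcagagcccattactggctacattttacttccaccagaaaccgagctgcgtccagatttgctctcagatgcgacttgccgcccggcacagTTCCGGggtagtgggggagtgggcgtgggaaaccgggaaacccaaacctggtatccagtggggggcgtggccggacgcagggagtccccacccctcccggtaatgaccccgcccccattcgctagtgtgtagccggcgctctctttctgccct
Flt1: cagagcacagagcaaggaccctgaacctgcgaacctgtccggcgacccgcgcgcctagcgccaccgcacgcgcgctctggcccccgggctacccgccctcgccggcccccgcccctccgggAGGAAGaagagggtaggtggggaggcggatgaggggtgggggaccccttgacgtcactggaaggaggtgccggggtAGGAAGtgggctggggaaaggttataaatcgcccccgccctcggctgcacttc
Eng: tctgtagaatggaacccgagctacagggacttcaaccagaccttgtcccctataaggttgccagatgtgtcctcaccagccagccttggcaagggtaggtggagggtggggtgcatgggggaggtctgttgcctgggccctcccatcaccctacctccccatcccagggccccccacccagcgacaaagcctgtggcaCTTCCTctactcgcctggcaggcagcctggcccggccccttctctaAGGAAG
Egfl7: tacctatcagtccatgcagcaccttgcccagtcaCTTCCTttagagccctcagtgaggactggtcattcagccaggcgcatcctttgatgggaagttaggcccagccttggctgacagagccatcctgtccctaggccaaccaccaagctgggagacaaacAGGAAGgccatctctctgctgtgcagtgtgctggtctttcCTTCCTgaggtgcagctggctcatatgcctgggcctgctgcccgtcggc
Cldn5: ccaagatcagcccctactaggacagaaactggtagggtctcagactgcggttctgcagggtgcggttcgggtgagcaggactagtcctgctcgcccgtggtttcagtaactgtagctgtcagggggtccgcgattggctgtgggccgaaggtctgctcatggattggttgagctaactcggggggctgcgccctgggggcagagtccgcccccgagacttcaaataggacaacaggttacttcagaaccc
The capitals mark 1 match in Kdr, 2 in Flt1, 2 in Eng and 3 in Egfl7. The Cldn5 window held 0 of either string.

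The WT vehicle hearts held the most endothelial message. Summed over the 35 genes, the WT vehicle libraries stood at 2992, 3036 and 3149 CPM, a mean of 3059 ± 81 (SD, n = 3). The sums were 2336, 2300 and 1930 CPM in WT DOX (2189 ± 225), 2355, 2111 and 2198 in KO vehicle (2221 ± 123), and 2055, 2278 and 2358 in KO DOX (2230 ± 157). Every WT vehicle library lay above every other library, and the other 3 groups overlapped. Fabp4 made up much of the sum; without it the ranges were 2172 to 2381 CPM in WT vehicle, 1606 to 1929 in WT DOX, 1702 to 1907 in KO vehicle and 1734 to 1917 in KO DOX. As a share of all counts the 35 genes took 0.281 to 0.319% in WT vehicle and 0.204 to 0.236% in the other 9 libraries. The highest group mean was that of WT vehicle for 26 of the 35 genes, against 32.8% of all genes. Flt1, Rgcc and Vwf had theirs in WT DOX, Ly6c1, Sox7 and Sox17 in KO vehicle, and Mmrn2, Plvap and Bmx in KO DOX.

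**Figure D1:**
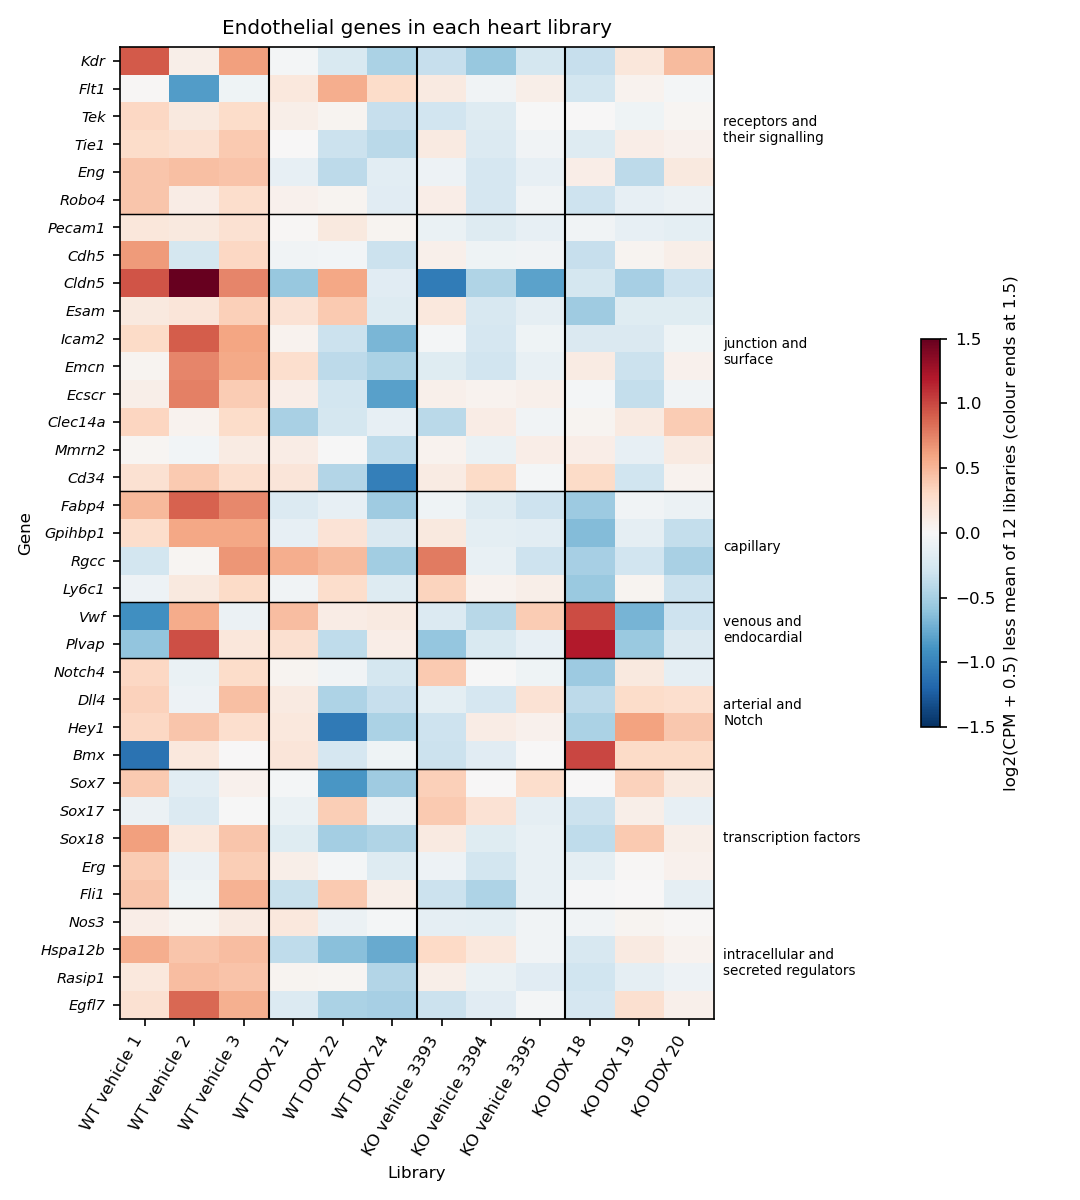
Level of each of the 35 endothelial genes (rows, by role) in each of the 12 libraries (columns), as log2(CPM + 0.5) less the gene's mean over the libraries; red is above and blue below that mean. Most rows are red in the 3 WT vehicle columns, where 26 of 35 genes had their highest group mean, while Vwf, Plvap and Bmx are most red in KO DOX 18.

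A pattern chosen after the values were seen is that of genes with all 3 WT vehicle libraries above each of the other 9. It held for 10 of the 35 genes (Eng, Hspa12b, Fabp4, Tek, Tie1, Rasip1, Robo4, Icam2, Gpihbp1 and Cldn5), against 5.29% of all genes tested. The reverse, all 3 below each of the other 9, held for 0 of the 35 against 6.49% of all genes.

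Per kilobase of merged annotated exons, Fabp4, a fatty acid carrier, had the highest level in WT vehicle hearts, at 170 ± 23.3 CPM per kb (SD, n = 3). Its merged exons span the whole gene in the annotation used, so this level understates a message that lacks introns. Ly6c1 followed at 60.3 ± 7.84 and Eng at 57 ± 0.797, which did not differ beyond their spread. Bmx was lowest, at 0.593 CPM per kb.

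DOX against vehicle in WT asks what the drug does to the heart vessels. Of the 35 genes, 14 fell and 0 rose (edgeR quasi-likelihood test, adjusted p below 0.05), where 18.6% of all genes were called, 9.2% lower and 9.39% higher. The median log2 fold change of the 35 was -0.47 against 0.00 for all genes, and 30 of the 35 were below 0. The groups did not overlap for 16 genes that were lower (15.8% of all genes) and for 1 that was higher, Flt1 (16.8% of all genes), or 17 in all (32.6% of all genes). By role, 3 of 6 receptors fell, 5 of 10 junction and surface genes, 2 of 4 capillary genes, 1 of 5 transcription factors and 3 of 4 intracellular or secreted regulators, and 0 of 2 venous or endocardial and 0 of 4 arterial and Notch genes were called.

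KO against WT under vehicle asks what the KO label does to the undrugged heart. Of the 35 genes, 5 fell and 0 rose, where 2.88% of all genes were called, 1.09% lower and 1.79% higher. The 5 were Kdr, Eng, Cldn5, Fabp4 and Egfl7. The median log2 fold change was -0.34 against 0.02 for all genes, and 29 of the 35 were below 0. The groups did not overlap for 19 lower and 0 higher genes (14.8% and 16.5% of all genes, 31.3% in all). All 5 were also among the 14 that fell under DOX in WT. Both comparisons are made against the same WT vehicle libraries, so a high level there lowers the fold change in both.

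**Figure D2:**
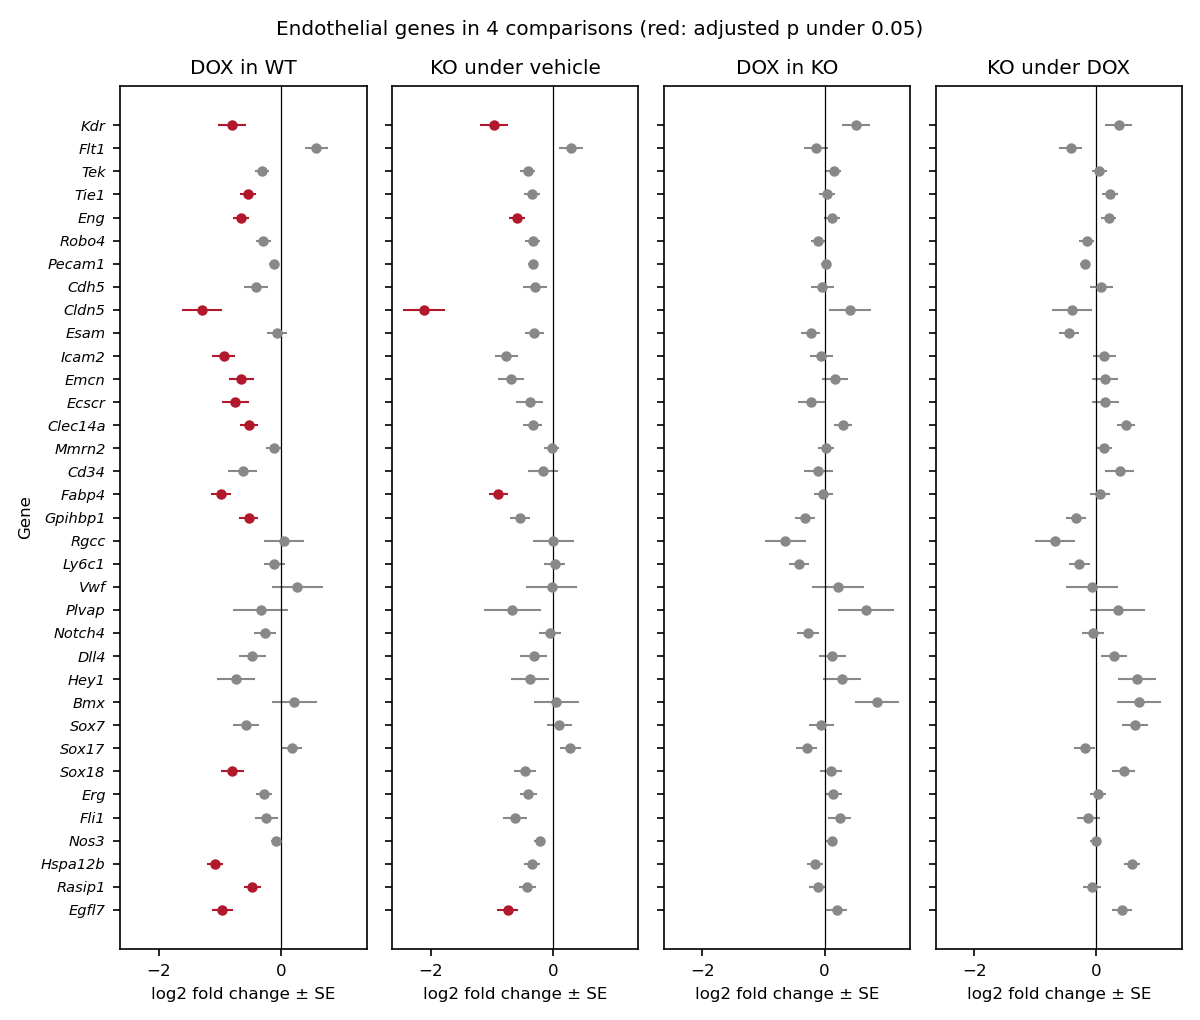
Log2 fold change (horizontal axis) ± SE of each of the 35 genes in 4 comparisons, with adjusted p below 0.05 in red. There are 14 red points for DOX in WT and 5 for KO under vehicle, all below 0, and 0 for DOX in KO and for KO under DOX.

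Among the receptors, Eng, the TGF-beta co-receptor endoglin, was the steadiest within WT vehicle. Its levels there were 228, 234 and 231 CPM, against 157, 130 and 153 in WT DOX, 163, 144 and 157 in KO vehicle and 184, 130 and 190 in KO DOX. All 9 of the others lay below all 3 WT vehicle libraries. Eng fell by 0.65 ± 0.13 on the log2 scale (SE) under DOX in WT (adjusted p = 0.0156) and by 0.58 ± 0.13 in KO under vehicle (adjusted p = 0.0438). Its exons overlap those of Fpgs on the other strand, and the strand setting of the counting is not given.

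Kdr, the main signalling receptor for VEGF-A, varied more among WT vehicle hearts. It stood at 303, 169 and 244 CPM in WT vehicle and at 156, 136 and 115 in WT DOX. In KO vehicle it was 125, 107 and 133 CPM, and in KO DOX 125, 179 and 221. WT vehicle lay above both WT DOX and KO vehicle with no overlap, while KO DOX reached into the WT vehicle range. Kdr fell by 0.81 ± 0.23 under DOX in WT (adjusted p = 0.031) and by 0.97 ± 0.23 in KO under vehicle (adjusted p = 0.0447).

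Flt1, the VEGF receptor that also traps its ligand, went the other way. Its levels were 184, 101 and 173 CPM in WT vehicle, 202, 264 and 219 in WT DOX, 198, 174 and 193 in KO vehicle and 149, 188 and 177 in KO DOX. All WT DOX libraries lay above all WT vehicle libraries, but the difference of 0.58 ± 0.19 missed the threshold (adjusted p = 0.0534). DESeq2 and limma-voom did call it. Under DOX in WT they called 3457 and 5575 genes in all, against 2743 by edgeR. Without WT vehicle 2, which held the lowest value, the difference was 0.35 (adjusted p = 0.123), and with the length and GC trend removed it was 0.39 (adjusted p = 0.126).

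Of the angiopoietin receptor genes and Robo4, 1 fell under DOX in WT. Tie1, the partner of the angiopoietin receptor TEK, was 112, 108 and 121 CPM in WT vehicle, 92.5, 73.7 and 69.5 in WT DOX, 101, 79.8 and 88.7 in KO vehicle and 80.7, 99.1 and 96.6 in KO DOX. It fell by 0.54 ± 0.13 under DOX in WT (adjusted p = 0.0215). The receptor Tek itself (-0.31 ± 0.12, adjusted p = 0.0808) and the guidance receptor Robo4 (-0.29 ± 0.12, adjusted p = 0.0985) did not pass, although their WT DOX libraries lay below their WT vehicle libraries. Tie1, Tek and Robo4 stood in KO under vehicle at -0.34, -0.41 and -0.33, with 0 of the 3 called by edgeR (each p unadjusted below 0.05), Tek called by DESeq2 and all 3 by limma-voom. In that comparison DESeq2 called 1682 and limma-voom 5186 genes in all, against 425 by edgeR.

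The junction gene Cldn5, the claudin of tight junctions between endothelial cells, had the largest fold change of the 35 genes under DOX in WT and in KO under vehicle. It was 21.6, 42.1 and 18.6 CPM in WT vehicle, 7.26, 16.8 and 9.73 in WT DOX, 5.06, 7.92 and 6.10 in KO vehicle and 9.14, 7.65 and 8.79 in KO DOX. No library outside WT vehicle reached its lowest WT vehicle value, and WT vehicle 2 stood far above WT vehicle 1 and 3. Cldn5 fell by 1.29 ± 0.33 under DOX in WT (adjusted p = 0.0246) and by 2.11 ± 0.34 in KO under vehicle (adjusted p = 0.0131). Without WT vehicle 2, the DOX value was -0.84 and no longer passed (adjusted p = 0.0981). It also missed without WT DOX 24 (adjusted p = 0.0934), and the KO value missed without KO veh_3393 (adjusted p = 0.0645) or KO veh_3395 (adjusted p = 0.068).

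The adhesion genes Pecam1 and Cdh5, often used to mark endothelium, were not called in any comparison by the main edgeR fit. Other edgeR fits called Pecam1 in KO under vehicle. These were the fits without WT vehicle 1 or WT DOX 21, with a filter of 1 CPM, and with the length and GC trend removed. Under DOX in WT edgeR called Cdh5 with no filter or without WT vehicle 2. DESeq2 called Pecam1 lower in KO under vehicle, and limma-voom called both lower there and Cdh5 lower under DOX in WT. Pecam1 (CD31), which sits at the contacts between endothelial cells, was 167, 164 and 174 CPM in WT vehicle, 150, 165 and 153 in WT DOX, 139, 130 and 136 in KO vehicle and 143, 136 and 134 in KO DOX. WT DOX overlapped WT vehicle (-0.11 ± 0.08, adjusted p = 0.36). All KO vehicle libraries were below all WT vehicle libraries, a difference of -0.32 ± 0.08 that missed the threshold (adjusted p = 0.0525). Cdh5 (VE-cadherin), the adhesion protein of the adherens junction, was 231, 123 and 184 CPM in WT vehicle, 143, 144 and 118 in WT DOX, 156, 142 and 143 in KO vehicle and 117, 152 and 157 in KO DOX. Its WT vehicle libraries spanned most of the range of the others, and it was not called under DOX in WT (-0.41 ± 0.19, adjusted p = 0.141) or in KO under vehicle (-0.29 ± 0.19, adjusted p = 0.353).

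Icam2, an adhesion ligand for leukocytes, was 19.4, 30.1 and 23.9 CPM in WT vehicle, 16.4, 12.5 and 9.62 in WT DOX, 15.4, 13.1 and 15.0 in KO vehicle and 13.5, 13.5 and 15.1 in KO DOX. Every library outside WT vehicle was below it. Icam2 fell by 0.94 ± 0.19 under DOX in WT (adjusted p = 0.0152), and its -0.76 ± 0.19 in KO under vehicle missed the threshold (adjusted p = 0.0508). The sialomucin Emcn (-0.65 ± 0.21, adjusted p = 0.0487), the surface regulator Ecscr (-0.75 ± 0.22, adjusted p = 0.0362) and the C-type lectin-like receptor Clec14a (-0.52 ± 0.15, adjusted p = 0.0361) also fell under DOX in WT. Of these 3, the groups overlapped for Emcn and Ecscr. Cd34, a sialomucin that stromal and blood progenitor cells also make, missed the threshold under DOX in WT (-0.63 ± 0.24, adjusted p = 0.0825). The tight junction adhesion molecule Esam (-0.07 ± 0.16) and the matrix protein Mmrn2 (-0.12 ± 0.13) lay near 0.

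Of the 4 capillary genes, Fabp4 and Gpihbp1 fell under DOX in WT. Fabp4 (chr3:10204088-10208576, GRCm38) was 655, 865 and 768 CPM in WT vehicle, 407, 430 and 324 in WT DOX, 448, 409 and 376 in KO vehicle and 321, 452 and 440 in KO DOX. The other 3 groups shared 1 range, below WT vehicle. Fabp4 fell by 0.98 ± 0.16 under DOX in WT (adjusted p = 0.00906) and by 0.89 ± 0.16 in KO under vehicle (adjusted p = 0.0193). Fabp4 is also an adipocyte gene. Summed over 6 adipocyte markers, the levels were 0.134 to 20.5 CPM in WT vehicle, 0.4 to 2.79 in WT DOX, 0.266 to 23.6 in KO vehicle and 0.585 to 69.4 in KO DOX, and edgeR called 0 of the 5 markers tested in any comparison (3 higher at an unadjusted p below 0.05 in KO under DOX). The part of adipocytes in the Fabp4 level was not tested.

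Gpihbp1, which anchors lipoprotein lipase in capillaries, was 84.9, 106 and 106 CPM in WT vehicle, 64.7, 81.2 and 60.6 in WT DOX, 78.0, 63.7 and 63.3 in KO vehicle and 44.6, 64.3 and 55.0 in KO DOX. Every library outside WT vehicle was lower. It fell by 0.53 ± 0.16 under DOX in WT (adjusted p = 0.0384), and the equal-sized -0.54 ± 0.16 in KO under vehicle missed the threshold (adjusted p = 0.07). The cell cycle regulator Rgcc (0.05 ± 0.33) and the surface protein Ly6c1 (-0.11 ± 0.17) lay near 0 under DOX in WT, where the 2 groups overlapped. For Ly6c1 every KO DOX library lay below every KO vehicle library (62.6 to 94.6 against 95.7 to 116 CPM), a difference that was not called. Ly6c1 is nearly identical to Ly6c2, a monocyte gene, so its count is uncertain.

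**Figure D3:**
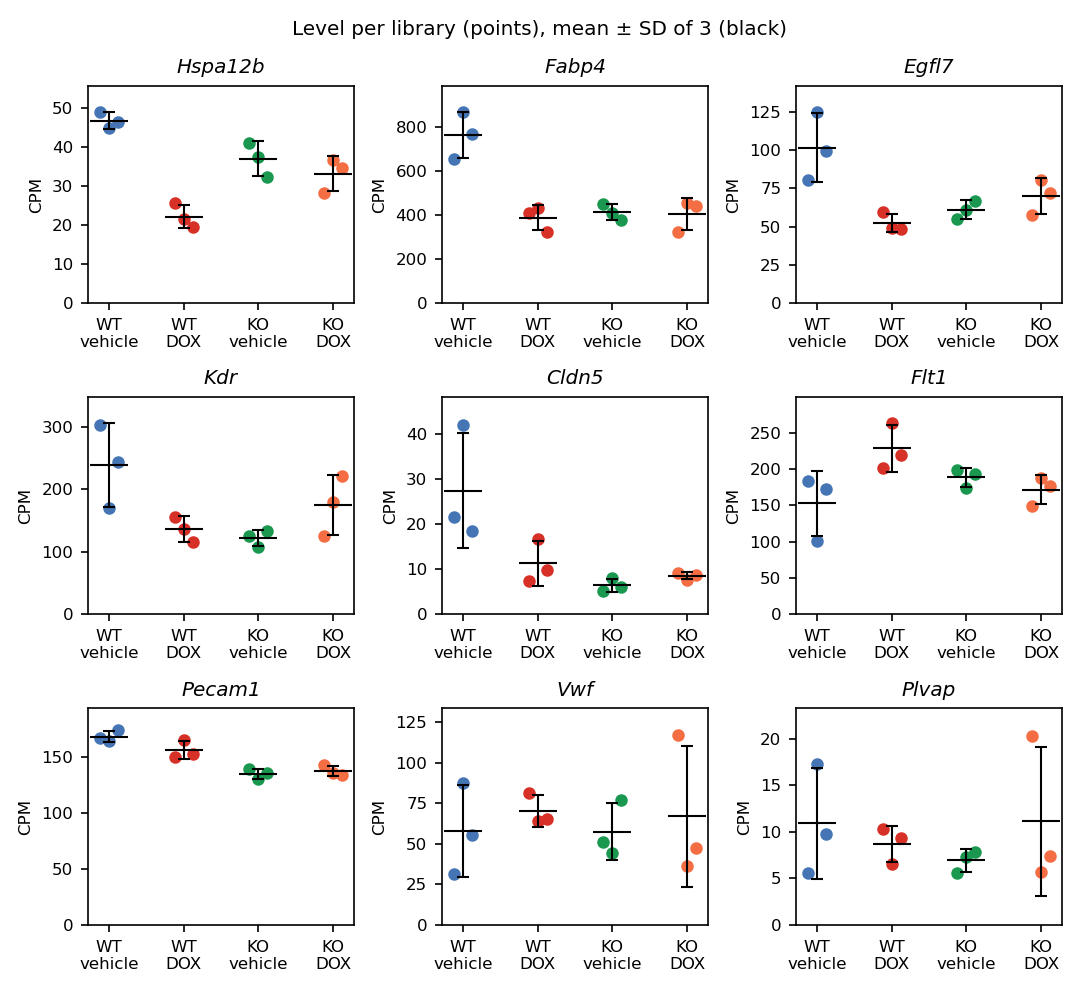
CPM of 9 endothelial genes in each library (points) with the group mean ± SD (black, n = 3), by group along the horizontal axis. In Hspa12b, Fabp4 and Cldn5 every WT vehicle point lies above every other point, Pecam1 spans only 130 to 174 CPM, and in Vwf and Plvap the highest point is KO DOX 18.

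The venous and endocardial genes were highest in single libraries, not in 1 group. Vwf, the platelet-binding factor stored in endothelial granules, was 31.2, 87.6 and 55.5 CPM in WT vehicle, 81.6, 64.3 and 65.3 in WT DOX, 51.4, 44.3 and 77.2 in KO vehicle and 117, 36.4 and 47.8 in KO DOX. Plvap, the diaphragm protein of fenestrae, was 5.57, 17.3 and 9.80 CPM in WT vehicle, 10.3, 6.52 and 9.30 in WT DOX, 5.59, 7.32 and 7.85 in KO vehicle and 20.3, 5.71 and 7.36 in KO DOX. Both were highest in KO DOX 18 and second highest in WT vehicle 2. KO DOX 18 was 1 of the 2 libraries with a high sum of atrial and endocardial markers, which was 117 CPM in WT vehicle 2. In the 2 high libraries the sum came mainly from Myl7, Myl4, Sln and Nppa. KO veh_3394, with the highest sum, was not high in Vwf or Plvap. Among the other markers, Cytl1 was 26.5 CPM in KO DOX 18, 25.1 in WT vehicle 2 and 14.2 in KO veh_3394. Npr3 was 37, 19.3 and 19.6 CPM in the same libraries. The part of these markers in the levels was not tested. Neither gene was called in any of the comparisons by DESeq2, limma-voom or edgeR with the filter (lowest edgeR p for Plvap, 0.14, in the interaction). With no filter on low counts, edgeR called Plvap in DOX in KO, in KO under vehicle and in the interaction. That fit called 309, 2088 and 1093 over all genes there.

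Of the arterial and Notch genes, edgeR with the filter and all libraries called 0 of 4 in any comparison, as did DESeq2. At an unadjusted p below 0.05 edgeR had 1 lower under DOX in WT, 1 higher under DOX in KO and 1 higher in the interaction (shares of all genes not computed). Dll4 and Hey1 were called by limma-voom as lower under DOX in WT and higher in the interaction, and Dll4 as lower in KO under vehicle. Over all genes limma-voom called 5575, 2048 and 5186 there, in that order. With no filter on low counts, edgeR called Dll4 and Hey1 under DOX in WT (3481 over all genes). That fit also called Hey1 in KO under DOX (1152) and in the interaction (1093). Without WT DOX 21, edgeR called Dll4 and Hey1 under DOX in WT (3851). Dll4, the Notch ligand of arteries and sprouting tips, was 25.2, 18.8 and 27.3 CPM in WT vehicle, 21.7, 14.2 and 15.5 in WT DOX, 17.9, 16.5 and 23.0 in KO vehicle and 15.0, 24.1 and 23.7 in KO DOX. Its groups overlapped, at -0.47 ± 0.22 under DOX in WT (adjusted p = 0.14). Hey1, a Notch target, was 12.6, 13.6 and 12.1 CPM in WT vehicle, 11.3, 4.55 and 7.11 in WT DOX, 8.02, 10.9 and 10.6 in KO vehicle and 7.13, 15.6 and 13.5 in KO DOX. WT DOX and KO vehicle lay below WT vehicle without overlap, yet neither difference passed (-0.74 ± 0.31, adjusted p = 0.105, and -0.38 ± 0.31, adjusted p = 0.46). The receptor Notch4 was at -0.27 and the kinase Bmx at 0.22 under DOX in WT. Bmx was highest in KO DOX 18, at 4.92 CPM, against 0.757 to 2.82 in the other libraries.

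Of the 5 transcription factors edgeR called 1, Sox18, under DOX in WT. DESeq2 also called Sox7 lower there, Fli1 lower in KO under vehicle and Sox18 in the interaction (3457, 1682 and 373 over all genes). In each of those 2 pairwise comparisons limma-voom called 3 lower (5575 and 5186 over all genes). With no filter, edgeR also called Sox7 under DOX in WT (3481 over all genes) and Fli1 and Sox18 in KO under vehicle (2088). That fit called Sox7 and Sox18 in KO under DOX (1152) and Sox18 in the interaction (1093). Sox18, a factor of arterial and lymphatic specification, was 39.3, 28.6 and 34.1 CPM in WT vehicle, 22.4, 17.8 and 18.5 in WT DOX, 28.1, 22.5 and 23.6 in KO vehicle and 19.4, 33.6 and 27.2 in KO DOX. It fell by 0.80 ± 0.19 (adjusted p = 0.0192), and it was at -0.46 ± 0.18 in KO under vehicle (adjusted p = 0.144). Its relative Sox17, an arterial factor, was 12.6, 11.6 and 13.3 CPM in WT vehicle, 12.5, 17.4 and 12.6 in WT DOX, 17.7, 15.7 and 12.2 in KO vehicle and 10.6, 14.3 and 12.3 in KO DOX, with all groups overlapping. Under DOX in WT, Sox7 was at -0.57 ± 0.21 (adjusted p = 0.0713), and the ETS factors Erg and Fli1 were at -0.28 ± 0.13 and -0.24 ± 0.19. In KO under vehicle Fli1, which blood cells also express, was at -0.62 ± 0.19 (adjusted p = 0.0766).

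Of the 35 genes, the one with the smallest p under DOX in WT was a regulator. Hspa12b (chr2:131127280-131146321, GRCm38), an endothelial chaperone-like protein tied to angiogenesis, was 49.2, 44.9 and 46.4 CPM in WT vehicle and 25.6, 21.5 and 19.6 in WT DOX. It was 41.2, 37.6 and 32.3 CPM in KO vehicle and 28.2, 36.7 and 34.8 in KO DOX. WT DOX was the lowest group, with no library reaching KO DOX, and KO vehicle lay below WT vehicle and above WT DOX. Hspa12b fell by 1.08 ± 0.13 under DOX in WT (adjusted p = 0.00522), and it was called in each of the 22 settings tried for that comparison. In KO under vehicle it was at -0.34 ± 0.13 (adjusted p = 0.128).

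Egfl7, a secreted protein of the vessel matrix whose gene hosts the microRNA miR-126, was 80.2, 125 and 99.4 CPM in WT vehicle, 59.3, 49.0 and 48.4 in WT DOX, 54.7, 60.9 and 67.0 in KO vehicle and 57.4, 80.7 and 72.1 in KO DOX. WT vehicle stood above both WT DOX and KO vehicle without overlap. Egfl7 fell by 0.96 ± 0.17 under DOX in WT (adjusted p = 0.0101) and by 0.74 ± 0.17 in KO under vehicle (adjusted p = 0.0406). Its exons overlap those of Agpat2 and of Gm20532, so part of the count is uncertain. Rasip1, which shapes the vessel lumen, fell by 0.47 ± 0.14 under DOX in WT (adjusted p = 0.0379), and its exons overlap those of Izumo1 on the same strand. Nos3, the endothelial nitric oxide synthase, ran only from 31.4 to 39.0 CPM over the 12 libraries and was at -0.08 ± 0.09.

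**Figure D4:**
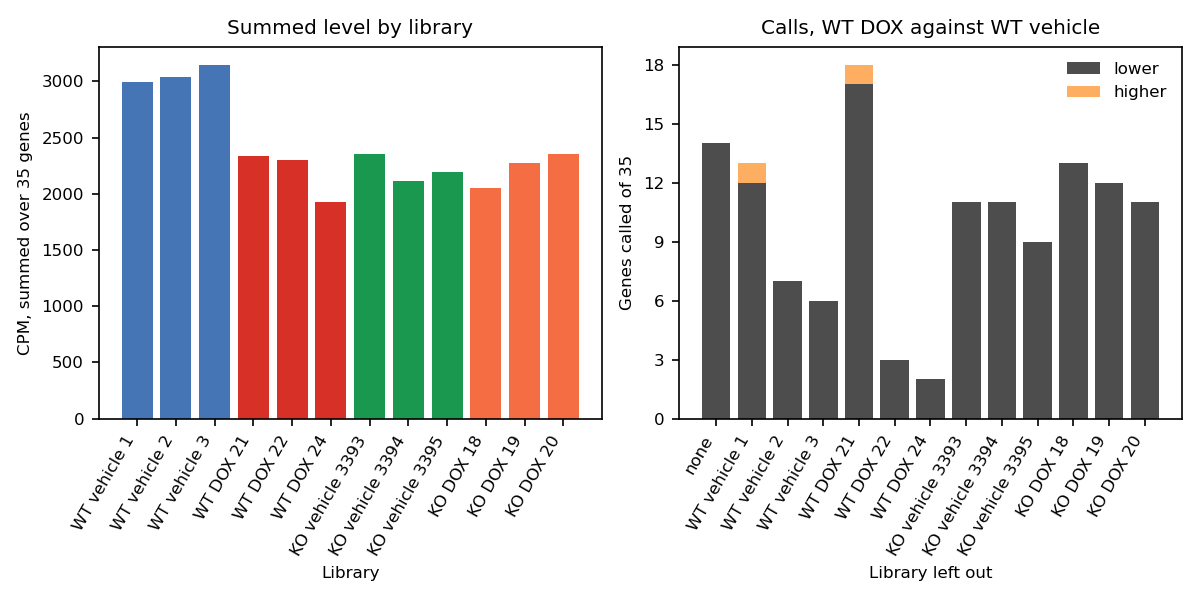
Left, CPM summed over the 35 genes in each library; right, number of the 35 genes called for DOX against vehicle in WT when each library named below the bar is left out. The WT vehicle sums are 2992 to 3149 CPM and the rest 1930 to 2358, and the calls run from 2 without WT DOX 24 to 18 without WT DOX 21, against 14 with all libraries.

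How many genes passed depended on single libraries, among the 35 and over all genes. Under DOX in WT, 2 of the 35 were called without WT DOX 24, 3 without WT DOX 22 and 6 without WT vehicle 3. There were 7 without WT vehicle 2 and 9 without KO veh_3395, and 18 without WT DOX 21, whose nearest library was KO DOX 20. Over all genes those fits called 183, 185, 742, 513, 1939 and 3851, in that order, against 2743 with all libraries. With WT vehicle and WT DOX alone in the fit, 1 of the 35 was called, Hspa12b, and 20 over all genes. Hspa12b and Fabp4 passed with any 1 library left out. Without WT DOX 22 the calls of Egfl7, Eng, Icam2, Sox18, Tie1 and Kdr were lost, and without WT DOX 24 those 6 and that of Cldn5 (adjusted p up to 0.117). Icam2 also missed without WT vehicle 2, Sox18 without WT vehicle 3, Tie1 without WT vehicle 2 or 3 and Kdr without WT vehicle 1 or 3. Clec14a, Ecscr, Rasip1, Gpihbp1 and Emcn each missed in at least 6 of the 12 fits with 1 library left out. In KO under vehicle, 0 were called without KO veh_3393 or KO veh_3395 (42 and 45 over all genes). Without WT vehicle 1, 10 were called there (2670 over all genes, against 425 with all libraries). Fabp4 missed there without WT vehicle 2 or 3 or any 1 KO vehicle library (adjusted p up to 0.099), and Egfl7, Eng and Kdr each missed in at least 7 of the 12 fits. The medians moved less: -0.53 to -0.38 for DOX in WT and -0.41 to -0.32 for KO under vehicle over the 22 settings. With a trend on gene length and GC content taken out of each library, DOX in WT gave 10 calls, 9 of them among the 14, and a median of -0.39. Over all genes it gave 1755 calls. The 5 calls lost were Sox18 (-0.50), Cldn5 (-0.88), Ecscr (-0.58), Rasip1 (-0.23) and Gpihbp1 (-0.39). In KO under vehicle the same fit gave 6 calls, 4 of them among the 5, and a median of -0.32 (403 calls over all genes). Egfl7 was lost there (edgeR adjusted p = 0.0509).

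DOX against vehicle in KO asks whether the drug acts on these genes under the KO label. Of the 35 genes 0 were called, where 0.0136% of all genes were, 0.00678% higher and 0.00678% lower. At an unadjusted p below 0.05 there were 2 higher genes (Kdr, 0.52 ± 0.23, and Bmx, 0.86 ± 0.36) and 1 lower (Ly6c1, -0.42 ± 0.17). For that cutoff the share of all genes was not computed. DESeq2 and limma-voom also called 0 of the 35 (66 and 88 over all genes). The median log2 fold change was 0.03 against 0.01 for all genes, and 16 of the 35 were below 0. The groups did not overlap for 2 higher (8.27% of all genes) and 2 lower genes (8.05% of all genes), 16.3% in all. KO vehicle itself stood below WT vehicle for 29 of the 35.

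KO against WT under DOX asks whether drugged hearts differed by label. Of the 35 genes 0 were called, against 0.42% of all genes (0.19% higher and 0.23% lower), and the median was 0.08 against 0.01 for all genes. At an unadjusted p below 0.05 there were 5 higher and 2 lower (share of all genes not computed). The groups did not overlap for 4 higher (9.86% of all genes) and 2 lower genes (9.75% of all genes), 19.6% in all. Hspa12b came nearest, at 0.58 ± 0.13 (adjusted p = 0.0757), with every KO DOX library above every WT DOX library. It was the single gene of the 35 that DESeq2 called (473 over all genes), and limma-voom called 3 (990 over all genes).

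The interaction, which subtracts the WT response to DOX from the KO response, tests whether the 2 labels differed in their response. Of the 35 genes 0 were called, against 0.21% of all genes (0.108% higher and 0.102% lower). At an unadjusted p below 0.05 there were 14 higher and 1 lower (Flt1, -0.72 ± 0.27). The share of all genes at that looser cutoff was not computed, so these 2 counts have no background beside them. The median was 0.52 against 0.00 for all genes. The WT vehicle libraries enter the interaction with a plus sign, so a high level there raises it. Hspa12b (0.92 ± 0.18, adjusted p = 0.0675), Egfl7 (1.16 ± 0.24, adjusted p = 0.0727), Fabp4 (0.95 ± 0.22, adjusted p = 0.105) and Kdr (1.34 ± 0.32, adjusted p = 0.115) came nearest. DESeq2 called 8 of the 35 (373 over all genes) and limma-voom 15 (2048 over all genes), where edgeR called 31 over all genes. Whether the response of these genes differed by label therefore depends on the test. Without WT DOX 21, 7 were called (515 over all genes) and the median was 0.71, and without KO DOX 18, 4 were called (72 over all genes).

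Other genes of these pathways were taken from 3 lists. Of 27 tested genes for angiogenic ligands and arteriovenous signalling, 5 fell and 1 rose under DOX in WT, where 9.2% of all genes were called lower and 9.39% higher. The 3 with the smallest p were Heyl, a Notch target (-0.65 ± 0.10, adjusted p = 0.00887), the VEGF receptor ligand Vegfb (-0.50 ± 0.13, adjusted p = 0.0256) and Angpt2, the angiopoietin that antagonises TEK (-0.90 ± 0.24, adjusted p = 0.0267). The genes Vegfc, Pdgfb and Angpt1, named after their values were seen, made up the 6, with Angpt1, the TEK agonist from mural cells, the one that rose (0.72 ± 0.22, adjusted p = 0.0447). In KO under vehicle, where 1.09% of all genes were called lower, 2 of the 27 fell, Angpt2 (-1.40 ± 0.25, adjusted p = 0.0186) and Heyl (-0.43 ± 0.10, adjusted p = 0.0453). Angpt2 was 7.7, 6.22 and 4.72 CPM in WT vehicle, 4.56, 2.69 and 2.71 in WT DOX, 2.09, 2.23 and 2.73 in KO vehicle and 4.41, 3.48 and 4.16 in KO DOX. Every other library lay below WT vehicle. The Angpt2 and Vegfb calls under DOX in WT were lost without WT DOX 22 or 24, among others, and the Heyl call was kept with any 1 library left out. Both Angpt2 and Heyl missed in KO under vehicle without any 1 KO vehicle library. With the length and GC trend removed Vegfb stood at -0.15. Vegfa, the chief ligand of KDR, was not called by edgeR in any comparison (-0.15 ± 0.16 under DOX in WT, adjusted p = 0.534), while limma-voom called it under DOX in WT, in KO under vehicle and in the interaction.

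Of 13 tested genes of capillary lipid and water handling, 5 fell and 0 rose under DOX in WT (9.2% of all genes lower, 9.39% higher). Aqp7, a glycerol channel that adipocytes also make, fell by 1.57 ± 0.23 (adjusted p = 0.0086), Fabp5, a fatty acid carrier, by 1.13 ± 0.22 (adjusted p = 0.0139) and Cav1, the caveolae protein, by 0.74 ± 0.15 (adjusted p = 0.016). Aqp7 was 35.9, 21 and 25.9 CPM in WT vehicle, 8.2, 12.3 and 7.40 in WT DOX, 10.3, 9.17 and 10.2 in KO vehicle and 12.0, 17.5 and 16.7 in KO DOX. In KO under vehicle Aqp7 (-1.48 ± 0.23, adjusted p = 0.0104) and Fabp5 (-1.02 ± 0.22, adjusted p = 0.0356) fell, 2 of the 13 (1.09% of all genes lower), and both missed without any 1 KO vehicle library (adjusted p up to 0.119). Without WT vehicle 2 Fabp5 stood at -0.66 there (adjusted p = 0.0765), and it also missed without WT vehicle 3 or KO DOX 20. Under DOX in WT the Aqp7 call was kept with any 1 library left out, while those of Fabp5 and Cav1 were lost without WT DOX 22 or 24. The fatty acid transporter Cd36, made by muscle cells too, was not called by edgeR in any comparison (0.47 ± 0.21 under DOX in WT, adjusted p = 0.133), while limma-voom called it under DOX in WT.

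Of 9 genes of endothelial activation, such as the adhesion molecules that capture leukocytes, edgeR called 0 in any of the 5 tests. At an unadjusted p below 0.05 it had 2 higher in KO under vehicle, 1 lower in DOX in KO, 1 higher and 2 lower in KO under DOX, and 1 each way in the interaction. Shares of all genes at that cutoff were not computed. DESeq2 called 2 of the 9 higher in KO under vehicle, Vcam1 among them, and limma-voom 3. Over all 14757 genes tested, the 2 tools called 1682 and 5186 in that comparison. Vcam1 was at -0.03 ± 0.30 under DOX in WT (adjusted p = 0.948) and at 0.86 ± 0.30 in KO under vehicle (adjusted p = 0.108).

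Markers of other cells differed beside the endothelial genes. Under DOX in WT (9.2% of all genes lower, 9.39% higher), all 5 erythroid markers fell, from a summed 50.8 to 172 CPM in WT vehicle to 0.144 to 0.395 in WT DOX, with 46.5 to 253 in KO vehicle and 0.709 to 213 in KO DOX. All 5 neutrophil markers rose, from a summed 2.00 to 3.45 CPM in WT vehicle to 8.63 to 36.6 in WT DOX, with 6.78 to 10.3 in KO vehicle and 3.94 to 5.55 in KO DOX. Of the cardiomyocyte markers 2 of 8 fell, of the pericyte and smooth muscle markers 1 of 9, of the fibroblast markers 0 of 8 and of the lymphatic endothelial markers 0 of the 5 tested. Of the 9 macrophage and monocyte markers tested, 1 rose (Cd163, 0.83) and 1 fell (Ccr2, -1.32). These calls were made by edgeR. DESeq2 also called the 5 erythroid markers lower, while limma-voom called 0 of them. Both called all 5 neutrophil markers higher. Of the cardiomyocyte markers DESeq2 called 4 lower, and limma-voom 4 lower and 1 higher. Of the lymphatic markers DESeq2 called Lyve1 higher, and limma-voom Lyve1 and Prox1. Over all genes the 2 tools called 3457 and 5575. In KO under vehicle (1.79% of all genes higher, 1.09% lower), all 5 neutrophil markers were higher without overlap (16.5% of all genes). Of these, 1 was called (Cxcr2, 3.82, adjusted p = 0.0302). Cxcr2 had counts of 1, 0 and 1 in WT vehicle and 14, 10 and 9 in KO vehicle, so its fold change rests on few reads. Of the 8 cardiomyocyte markers edgeR called 1 higher (Ryr2, 0.87, adjusted p = 0.0217) and 0 lower. Their groups did not overlap for 4 lower and 2 higher markers (14.8% and 16.5% of all genes). DESeq2 called Tnnt2, Tnni3, Myl2 and Myl3 lower and Ryr2 higher, among 1682 genes in all. These marker genes were named after their values were seen. The part of these cells in the endothelial levels was not tested.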

How the data were processed

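The authors deposited whole-number read counts for each gene symbol, with a file for every library. Per the labels' protocols, polyadenylated RNA was made into stranded libraries. Per the submitters' processing notes, reads went through fastp (0.20.0), STAR (2.7.0f) and featureCounts of Subread (1.6.4). Which genome build, annotation and strand setting were used is not given in the sources used here. The counts were used unchanged, in R 4.3.3. The filterByExpr filter, applied by group, kept 14757 genes, and TMM factors set the library sizes, also for CPM. One model with a mean per group was fitted to the 12 libraries in edgeR 4.0.16. Where edgeR is named without a setting, this fit is meant. Comparisons were tested by quasi-likelihood, with p-values adjusted by the Benjamini-Hochberg method across the 14757 genes (threshold 0.05). Shares of all genes called refer to the adjusted p. For counts at an unadjusted p below 0.05 no such share was computed. The common biological coefficient of variation was 17.5%. The script was tested on simulated data.

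The 35 genes, their 7 role groups and the other lists were chosen with earlier results of these data known. Values of every library are given for up to 8 called genes with the smallest p per comparison and for 11 genes whatever their p. Of the other lists, up to 3 called genes per comparison with the smallest p are named, with Vegfa, Cd36 and Vcam1. Exon lengths come from GENCODE M21, matched by symbol for 98.3% of 55453 symbols, and promoters from RefSeq. Alternatives were DESeq2 1.42.0, limma-voom (limma 3.58.1) with quality weights, other scalings and filters, fits of 2 groups, a title suffix as covariate and each library left out. A fit that omitted the 2 atrial-high libraries, and one with a length and GC trend removed, were chosen after seeing the data.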

Additional observations from a re-analysis of the deposited data

Results flagged for a closer look

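Of the pathway genes, Aqp7 and Heyl differed between the WT and KO labels in their response to DOX. The test was that of the interaction itself (edgeR quasi-likelihood, adjusted over all genes). Aqp7 was 2.21 ± 0.32 log2 (SE) higher in its DOX response under the KO label (adjusted p = 0.0288). It fell under DOX in WT, and was 12.0, 17.5 and 16.7 CPM in KO DOX against 10.3, 9.17 and 10.2 in KO vehicle. Heyl differed by 0.93 ± 0.14 (adjusted p = 0.0288). Heyl was 28.1, 23.0 and 29.1 CPM in WT vehicle, 17.1, 16.4 and 17.8 in WT DOX, 19, 19.5 and 21.2 in KO vehicle and 24.5, 23.9 and 24.1 in KO DOX. Within KO, neither gene's DOX response passed (0.64 ± 0.23, adjusted p = 0.716, and 0.28 ± 0.10, adjusted p = 0.728). Both genes were also called lower in KO under vehicle (-1.48 for Aqp7 and -0.43 for Heyl). The same WT vehicle libraries enter that comparison and the interaction, so a high level there raises the interaction. The Aqp7 call was lost without WT vehicle 3, WT DOX 24, KO DOX 19 or 20, or any 1 KO vehicle library (adjusted p up to 0.108). The Heyl call was lost without any of those libraries or without WT DOX 22 (adjusted p up to 0.115). Without KO veh_3394 and KO DOX 18 together, both missed the threshold, with adjusted p = 0.0623 for Aqp7 and 0.101 for Heyl.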

How the results depend on the processing

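No called result changed direction, and the medians of the 35 genes kept their sign in DOX in WT, KO under vehicle and the interaction under every setting tried. No paired analysis was possible because the groups compared share no replicate numbers. The number of the 35 genes called moved by setting, as did the number over all genes. DOX in WT gave 14 genes, 23 with limma-voom, 1 in the fit of the 2 groups alone, 11 without the 2 libraries high in atrial transcripts, and 2 to 18 with 1 library left out. Over all genes these fits called 2743, 5575, 20 and 1898, and 183 and 3851 at the ends of that range. KO under vehicle gave 5 genes (425 over all genes), 13 with no filter (2088), 12 with DESeq2 (1682) and 22 with limma-voom (5186). It gave 3 in the fit of the 2 groups (222), 2 with the title suffix as covariate (211) and 2 without the atrial-high libraries (68). With 1 library left out it gave 0 to 10. There it was 1 without WT vehicle 3 (51) or KO veh_3394 (52), and 2 without WT vehicle 2 (109) or KO DOX 20 (156). It was 3 without WT DOX 22 (346) and 9 without WT DOX 21 (734). DOX in KO gave 0 (2 over all genes), 3 with no filter (309), and 0 with any library left out. KO under DOX gave 0 (62), 7 with no filter (1152), 1 with DESeq2 (473), 3 with limma-voom (990), and 0 to 2 with 1 library left out. The interaction gave 0 (31), 1 with no TMM scaling (51), 14 with no filter (1093), 8 with DESeq2 (373) and 15 with limma-voom (2048). With 1 library left out it gave 0 to 7. Its median ran from 0.35 without WT DOX 24 to 0.71 without WT DOX 21, and that of KO under DOX from -0.04 to 0.16. Numbers in brackets are calls over all genes. The cause of these differences was not tested. Where libraries were left out, the fits also had fewer samples. Counts were at least 17 for each of the 35 genes in each library, and each group had 3 libraries.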
